A study of Homo sapiens with 4 samples.

Results

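The genes described here are 40 genes of glycolysis and of the response to low oxygen, listed by name, of which 36 had a probe set that the platform annotation pairs with exactly 1 symbol, among 18417 genes named that way. PGAM1 is listed only on probe sets with several symbols, and SLC16A1, SLC16A3 and CA9 were not analysed here. All 36 lay above the intensity filter used for testing, which kept 13813 genes with a mean log2 intensity of at least 6.78. They were measured on 4 whole-transcript arrays. All RNA came from DAOY, a long-established line of human medulloblastoma, a tumour of the cerebellum. In all, 3 arrays came from cells given lentivirus with a short hairpin RNA (shRNA) against ZFX, named H2, H3 and H4 and carrying the genotype label ZFX KD, with 1 array per hairpin. The other array came from cells given the control non-targeting shRNA SCR, here called scrambled, with the genotype label Ctrl. Cells of both groups were transduced for 16 to 24 hours, recovered for 48 hours and were then kept in 2 ug/mL puromycin for about 48 hours, so the control also carries a lentivirus and went through selection. Nothing in the labels gives the oxygen level or says that a transduction was repeated.

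Glycolysis splits glucose into pyruvate in the cytosol. Glucose enters through transporters, is phosphorylated by hexokinase, committed by phosphofructokinase and cleaved by aldolase, and the resulting trioses are oxidised to pyruvate, which lactate dehydrogenase can reduce to lactate. Hypoxia-inducible factors (HIFs) are transcription factors whose alpha subunits, HIF1A and EPAS1, are hydroxylated by the prolyl hydroxylases EGLN1 and EGLN3 and then degraded while oxygen is present. In low oxygen the alpha subunits persist, pair with ARNT and bind the core letters ACGTG or GCGTG in genes for glucose uptake, glycolytic enzymes, blood vessel growth, pH control and mitophagy. The subunits are controlled largely as proteins, which arrays of RNA do not measure.

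Promoter windows are shown for the 2 alpha subunits, and for members that mark the span of the results: EGLN3, the member with the highest mean difference over the 3 hairpins, SLC2A1 and ENO2, which were below it with every hairpin, and LDHA, which stayed within 0.1 of it. The last 4 were chosen after their values were seen. Each window, from RefSeq on GRCh38.p14, runs 5′ to 3′ over 300 bases, from 250 before the annotated start. Capitals mark ACGTG and GCGTG on either strand (CACGT and CACGC when read from the other strand), the HIF core, and AGGCCT, which reads alike on both strands and is the core of the motif known for Zfx in mouse cells. The windows are chr2:46297157-46297456 on the plus strand for EPAS1, chr14:61695263-61695562 on the plus strand for HIF1A, chr14:33951025-33951324 on the minus strand for EGLN3, chr1:42958819-42959118 on the minus strand for SLC2A1, chr12:6914330-6914629 on the plus strand for ENO2 and chr11:18394313-18394612 on the plus strand for LDHA.
EPAS1: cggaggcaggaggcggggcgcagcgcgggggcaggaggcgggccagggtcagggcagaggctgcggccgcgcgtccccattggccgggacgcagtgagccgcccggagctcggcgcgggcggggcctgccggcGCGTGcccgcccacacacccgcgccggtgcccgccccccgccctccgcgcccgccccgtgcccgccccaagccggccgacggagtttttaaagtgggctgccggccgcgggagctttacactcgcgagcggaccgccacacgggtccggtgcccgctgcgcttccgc
HIF1A: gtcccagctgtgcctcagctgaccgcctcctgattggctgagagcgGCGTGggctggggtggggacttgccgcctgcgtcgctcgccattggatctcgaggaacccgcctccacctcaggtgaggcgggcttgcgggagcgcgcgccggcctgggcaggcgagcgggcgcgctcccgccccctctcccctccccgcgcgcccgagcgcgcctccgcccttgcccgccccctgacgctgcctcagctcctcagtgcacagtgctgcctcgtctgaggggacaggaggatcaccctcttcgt
EGLN3: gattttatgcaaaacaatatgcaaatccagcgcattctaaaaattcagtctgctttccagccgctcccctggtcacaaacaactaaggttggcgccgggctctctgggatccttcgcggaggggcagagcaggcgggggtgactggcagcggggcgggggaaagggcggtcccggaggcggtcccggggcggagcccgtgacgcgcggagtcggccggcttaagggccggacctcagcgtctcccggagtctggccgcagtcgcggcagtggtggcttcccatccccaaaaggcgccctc
SLC2A1: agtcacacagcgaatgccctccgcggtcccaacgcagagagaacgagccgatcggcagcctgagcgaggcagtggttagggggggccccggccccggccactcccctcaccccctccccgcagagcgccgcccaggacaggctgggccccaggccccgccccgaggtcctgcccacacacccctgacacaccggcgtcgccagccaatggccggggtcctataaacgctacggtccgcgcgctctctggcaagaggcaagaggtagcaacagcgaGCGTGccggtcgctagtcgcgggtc
ENO2: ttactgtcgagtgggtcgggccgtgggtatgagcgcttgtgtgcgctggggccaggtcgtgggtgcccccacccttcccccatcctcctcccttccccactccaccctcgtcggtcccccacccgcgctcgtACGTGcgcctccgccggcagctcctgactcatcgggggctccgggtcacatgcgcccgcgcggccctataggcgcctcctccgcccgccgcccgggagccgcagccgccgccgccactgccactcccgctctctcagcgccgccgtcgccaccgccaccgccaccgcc
LDHA: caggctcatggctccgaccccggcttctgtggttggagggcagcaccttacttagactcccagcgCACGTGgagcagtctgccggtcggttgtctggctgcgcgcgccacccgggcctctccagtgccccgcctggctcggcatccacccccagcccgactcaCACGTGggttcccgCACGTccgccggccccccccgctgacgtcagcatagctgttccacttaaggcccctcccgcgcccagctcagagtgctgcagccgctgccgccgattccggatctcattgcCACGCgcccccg

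The LDHA window holds 5 ACGTG matches and 1 GCGTG match, with ACGTG read on both strands of each CACGTG counted as 2. EPAS1 and HIF1A hold 1 GCGTG each, 117 and 204 bases upstream of the start, SLC2A1 holds 1 GCGTG 25 bases downstream of it, and ENO2 holds 1 ACGTG 118 bases upstream. EGLN3 holds neither, and none of the 6 windows holds AGGCCT. The promoter table matched 32 members. ACGTG or GCGTG was present in 24 of the 32 windows (75%), against 61.9% of 10919 windows of genes past the filter and 48.4% of all 27305 windows of this length. The members' windows were also richer in G and C, with a median of 69.8%, against 65.3% for genes past the filter. AGGCCT was present in 1 member window (3.13%), that of BNIP3, against 11.1% of genes past the filter. These matches are letters in a window and say nothing about binding.

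ZFX itself, the targeted zinc finger transcription factor, read 745, 749.6 and 996 with H2, H3 and H4, against 1429.6 on the scrambled array, and was thus lower on every knockdown array. Any pair of arrays correlated at 0.992 to 0.996 over all 33297 probe sets, which are not independent replicates. Of 12 medulloblastoma and neural progenitor markers, 10 lay above the intensity filter, including VIM, ZIC1, ZIC2, SOX2 and OTX2, while NES and GLI1 lay below it. Of the markers of other cell types, PTPRC (leukocytes), PECAM1, CDH5, KDR and VWF (endothelium) and EPCAM and CDH1 (epithelium) lay below the filter. Summed intensities of 7 endothelial markers were 1175 to 1642 on the knockdown arrays and 2239 on the scrambled array, with 3 above the filter, of which TIE1 and TEK were lower on all 3 knockdown arrays and CLDN5 had log2 differences of 0.23 (H2), -0.02 (H3) and -0.002 (H4). Those of 8 epithelial markers were 9364 to 10110 and 11994, with KRT8, KRT18, KRT7, KRT19 and KRT14 above the filter. Sums of 7 leukocyte markers were 2720.3 to 4136 and 3480.5, with 3 above the filter. The part of these shifts in the results below was not tested. All RNA came from the DAOY line, so these sums are no measure of other cell types. In bulk RNA a change in a share of the DAOY cells and a change per cell cannot be told apart.

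Against the scrambled array, both glucose transporters read lower with every hairpin, where 30.6% of all genes kept did. Of 16 glycolytic enzymes and lactate dehydrogenases, 9 stayed within 0.1 on the log2 scale with all 3 hairpins, where 12.5% of all genes did. That share was 23.7% among genes with a mean log2 intensity of at least 12. The differences of most hypoxia genes depended on the hairpin. With all 3 hairpins, 14 of the 36 members were lower (38.9%), where 30.6% of all genes kept were, and 2 were higher (5.56%), where 16.9% were. The share that was lower is near the background, and it rests on the scaling of the arrays. Centring each array on its median gave 8 lower and 7 higher, against 23.3% and 23.6% of all genes. Without H4, 8 members were higher with both other hairpins, and without H3, 4 were. Such counts over 2 hairpins cannot be smaller than the count over all 3. The median of the mean log2 differences was -0.08 over the members and -0.03 over all genes kept. In limma 0 of 36 members and 0 of 13813 genes passed an adjusted p of 0.05 (percent called 0), and every member had an adjusted p = 0.9998. An unadjusted p under 0.05 in limma was reached by 1 member, SLC2A1, which was lower, and by 3.23% of all genes, 2.48% lower and 0.746% higher. An exact permutation test of 3 arrays against 1 cannot give less than p = 0.25, so the values below are descriptions, and the SDs over hairpins leave out the error of the lone scrambled array.

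**Figure D1:**
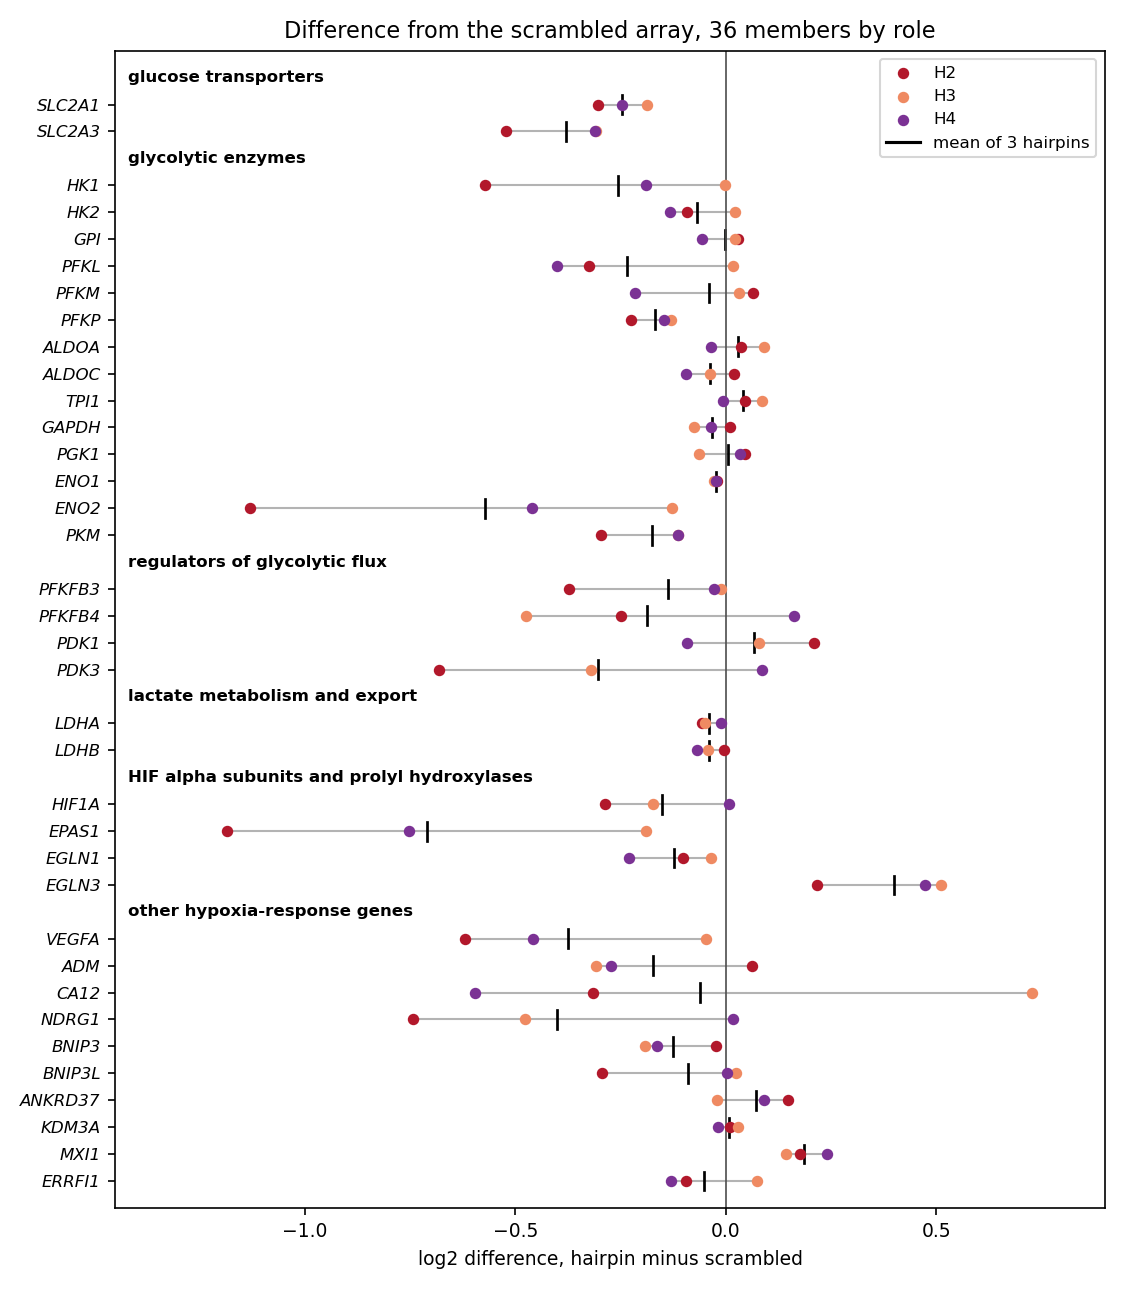
Log2 difference of each hairpin array from the scrambled array (x axis) for 36 members grouped by role (y axis). Each point is 1 array, the grey line spans the 3 hairpins and the black tick is their mean. Apart from ENO2 and PKM, the enzymes listed below PFKP lie near 0, while EPAS1, ENO2, NDRG1 and CA12 spread widely between hairpins.

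Both glucose transporters were below the scrambled array with every hairpin, where 30.6% of all genes kept were. SLC2A1, the widespread basal transporter GLUT1 and a known HIF target whose window is printed above, read 7033, 7616 and 7306 with H2, H3 and H4, against 8675 on the scrambled array. The 3 knockdown values lay close together and all below the control, at 81.1%, 87.8% and 84.2% of it. Its mean log2 difference was -0.25 ± 0.06 (SD, n = 3 hairpins), and limma gave an unadjusted p of 0.0343, the smallest among the members. Over the alternatives tried that unadjusted limma p rose above 0.05 after centring, without H3, without H4 and with eBayes without the trend. SLC2A3, the high-affinity transporter GLUT3 known from neurons, read 1487, 1723 and 1721 with the hairpins, against 2134 on the scrambled array. It was lowest with H2 and nearly equal with H3 and H4, and its log2 differences averaged -0.38 ± 0.12 (SD, n = 3). The direction of both held under each other scaling tried, at -0.21 to -0.27 for SLC2A1 and at -0.35 to -0.36 for SLC2A3.

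At the first steps of the pathway the enzymes were uneven. HK1, the hexokinase of most tissues, read 439 with H2, 651 with H3 and 572 with H4, against 653 on the scrambled array, so H3 matched the control and H2 stood at 67.2% of it. HK2, the hexokinase induced by HIF and in many tumours, had log2 differences of -0.09, 0.02 and -0.13. Of the phosphofructokinases, PFKP, the platelet form, was lower with each hairpin at -0.23, -0.13 and -0.15, whereas PFKL, the liver form, read 583, 739 and 553 with H2, H3 and H4, against 730.2 on the scrambled array. PFKL was thus below the control with H2 and H4 and level with it at H3, with a mean of -0.24 ± 0.22 (SD, n = 3). PFKM, the muscle form, differed by 0.06, 0.03 and -0.22.

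From phosphoglucose isomerase to lactate dehydrogenase most enzymes stayed within 0.1 of the scrambled array on the log2 scale with all 3 hairpins. This held for 9 of the 16 glycolytic enzymes and lactate dehydrogenases measured, where 12.5% of all genes kept did so, and for GPI, ALDOA, ALDOC, TPI1, GAPDH, PGK1, ENO1, LDHA and LDHB by name. Intensity bears on this count, since bright genes vary less. Among genes with a mean log2 intensity of at least 12, a level chosen after seeing the data, 7 of 8 such enzymes did so, where 23.7% of 912 genes did. These enzymes ranged from 12.5 (GPI) to 14.3 (GAPDH), and the 912 genes were not matched to them in level. How much of the gap goes with intensity was not tested. GAPDH, which oxidises glyceraldehyde phosphate and serves as a common reference gene, read 21308, 20090.3 and 20678 with H2, H3 and H4, against 21180.0 on the scrambled array. ENO1, the widespread enolase, read 17359, 17275 and 17334 with the hairpins, against 17617, the smallest spread of these enzymes (mean log2 difference -0.02 ± 0.004, SD, n = 3). LDHA, which makes lactate and is a textbook HIF target, read 12898, 12958 and 13294, against 13408. The knockdown values of LDHA were all below the control, by at most 0.06 on the log2 scale. LDHB, the form favoured where lactate is used, was likewise lower by at most 0.07. The signs of such small differences carry little, since those of GPI, PGK1 and ENO1 turned under at least 1 other scaling. After centring each array on its median, neither LDHA nor LDHB was lower with all 3 hairpins.

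TPI1, triose phosphate isomerase, had 2 probe sets, which lay on opposite sides of the control with H2 and H3 and both below it with H4. The one with the higher mean differed by 0.04, 0.08 and -0.01 with H2, H3 and H4, and the other by -0.05, -0.04 and -0.07. Several of these genes, GAPDH, PGK1, ENO1, LDHA, LDHB, TPI1 and ALDOA among them, have processed pseudogenes or close relatives that may share probes, so their values remain uncertain to that extent.

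Among the enzymes, 2 late ones departed from this pattern. PKM, pyruvate kinase of muscle and tumour cells, read 10887, 12347 and 12348 with H2, H3 and H4, against 13365 on the scrambled array. It was below the control with every hairpin, most with H2, and its log2 differences averaged -0.17 ± 0.10 (SD, n = 3). ENO2, the neuronal enolase, read 689 with H2, 1379.8 with H3 and 1095 with H4, against 1507 on the scrambled array. Its knockdown values differed from each other by more than H3 did from the control. Relative to the scrambled array ENO2 stood at 45.7%, 91.6% and 72.7%. Its log2 differences averaged -0.57 ± 0.51 (SD, n = 3), or -0.29 without H2. ENO1 and ENO2, which catalyse the same step, thus had mean differences of -0.02 and -0.57.

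Regulators that set the flow through the pathway differed between hairpins. PFKFB3 and PFKFB4 make the fructose bisphosphate that activates phosphofructokinase. PFKFB3 differed by -0.37 with H2 and by -0.01 and -0.03 with H3 and H4. PFKFB4 read 285, 244 and 379.5 with H2, H3 and H4, against 339 on the scrambled array, so that H4 was above the control and the others below it. The pyruvate dehydrogenase kinases PDK1 and PDK3 restrain the entry of pyruvate into mitochondria. PDK1 read 1526, 1394 and 1238 with the hairpins, against 1319, and PDK3 read 823, 1057 and 1400.1, against 1319. PDK1 was thus above the control with H2 and H3 and below it with H4, and PDK3 the reverse. The mean log2 differences of the 4 regulators lay between -0.30 and 0.07, each with an SD larger than 0.15 (n = 3).

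**Figure D2:**
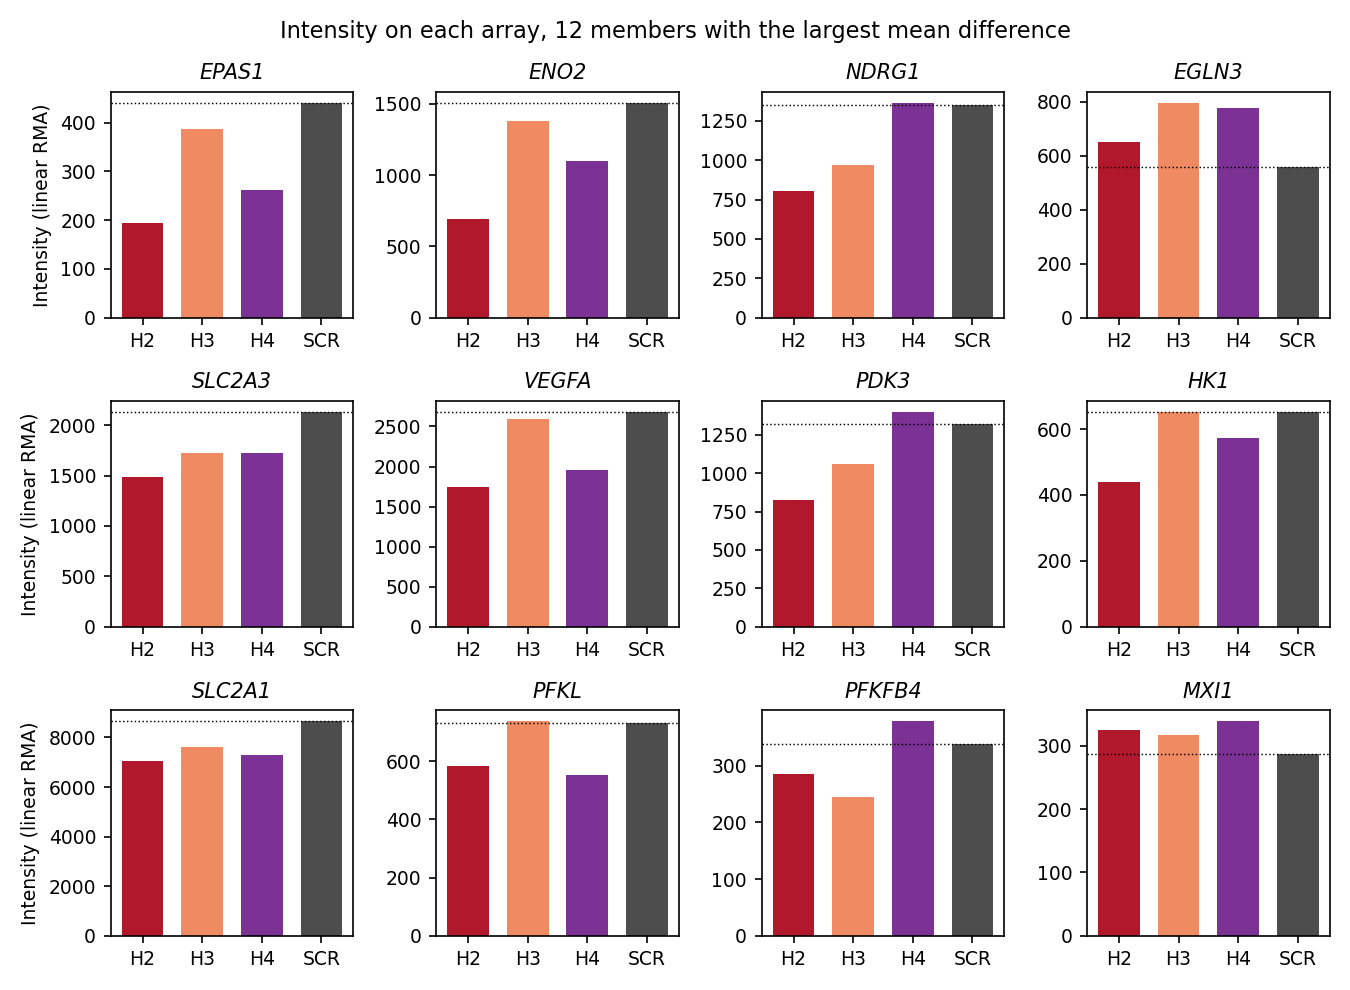
Intensity on a linear scale (y axis) on the H2, H3, H4 and scrambled (SCR) arrays for the 12 members with the largest mean log2 difference, with the dotted line at the scrambled value. EPAS1 reads 194, 386 and 261 with the hairpins and 441 on the scrambled array, while EGLN3 and MXI1 lie above the scrambled value on all 3 knockdown arrays.

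The oxygen-sensing machinery held the members with the lowest and the highest mean difference over the 3 hairpins, EPAS1 and EGLN3. EPAS1, the HIF alpha subunit known from endothelium and from tumours, read 194 with H2, 386 with H3 and 261 with H4, against 441 on the scrambled array. Every knockdown array was below the control, at 44.0%, 87.7% and 59.3%, and H2 and H3 lay further apart than H3 and the control. The mean log2 difference of EPAS1 was -0.71 ± 0.50 (SD, n = 3), the largest of the members, and it was -0.47 without H2. HIF1A, the widespread alpha subunit, read 7998, 8646 and 9809.6 with the hairpins, against 9754. It was below the control with H2 and H3 and level with it at H4. EGLN3, a prolyl hydroxylase that HIF itself induces, read 650.0, 797 and 776 with H2, H3 and H4, against 559 on the scrambled array. All 3 knockdown values of EGLN3 lay above the control, with H2 closest to it, and the mean log2 difference was 0.40 ± 0.16 (SD, n = 3), or 1.32-fold. Its relative EGLN1, the main hydroxylase in most cells, differed by -0.10, -0.04 and -0.23. Under each other scaling tried EPAS1 stayed at -0.68 to -0.69 and EGLN3 at 0.43 to 0.46.

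Of the 10 other hypoxia-response genes, 2 (20%) lay below the scrambled array with all 3 hairpins and 1 (10%) above it. Of all genes kept, 30.6% lay below and 16.9% above. Centring turned the counts to 1 and 3, where 23.3% and 23.6% of all genes kept did so. The 1 above was MXI1, whose mean difference stayed at 0.21 to 0.22 under the other scalings. MXI1, which antagonises MYC, read 325, 317 and 339.9 with H2, H3 and H4, against 288 on the scrambled array, averaging 0.19 ± 0.05 above it on the log2 scale (SD, n = 3). VEGFA, the growth factor of blood vessels, read 1747, 2599 and 1954 with the hairpins, against 2684. It was below the control with every hairpin, by 0.62 with H2 and 0.46 with H4 but by 0.05 with H3, the same order of hairpins as EPAS1 and ENO2. NDRG1, a stress-response gene, read 806, 969 and 1364, against 1348, and so was lower with H2 and H3 and level at H4. The likeness of these orders is a description over 3 arrays that share 1 control.

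CA12, a carbonic anhydrase at the cell surface that helps to control pH, differed most between hairpins. It read 361 with H2, 743 with H3 and 297 with H4, against 449 on the scrambled array. The mean log2 difference of CA12, -0.06 ± 0.70 (SD, n = 3), therefore describes none of the 3 arrays. BNIP3 and BNIP3L, receptors that mark mitochondria for removal, differed by -0.02, -0.19 and -0.16 and by -0.30, 0.02 and 0.004. ADM, the vasodilator peptide adrenomedullin, differed by 0.06, -0.31 and -0.27. KDM3A, a histone demethylase, stayed within 0.03 of the control with every hairpin. ERRFI1, a feedback inhibitor of the EGF receptor, read 4629, 5204 and 4518, against 4946, and ANKRD37 read 192, 170.5 and 184, against 173, each on both sides of the control.

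Taken one at a time, the hairpins gave different numbers of members at least 1.5-fold from the scrambled array. With H2, 5 of 36 members were that much lower (13.9%), namely EPAS1, ENO2, NDRG1, PDK3 and VEGFA, where 5.61% of all genes kept were, and 0 were higher, where 0.992% were. With H3, 0 members were that much lower, where 1.14% of genes were, and 1 was higher, CA12, where 0.528% were. With H4, EPAS1 and CA12 were that much lower (5.56%), where 2.17% of genes were, and 0 were higher, where 0.608% were. The 3 comparisons share the scrambled array, so they are not independent of each other. At least 1.5-fold on 1 side with all 3 hairpins there were 0 members in either direction, where 0.311% of genes were lower and 0.0507% higher. At a distance of at least 0.32 on the log2 scale there were again 0 members, where 1.9% of genes were lower and 0.369% higher. Past that distance with 1 hairpin, 9 members were lower and 0 higher with H2, where 15.4% and 5.42% of genes were. With H3, 2 members were lower and 2 higher, where 5.91% and 3.58% of genes were. With H4, 5 were lower and 1 higher, where 9.25% and 2.97% of genes were.

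Set apart, the 16 glycolytic enzymes and lactate dehydrogenases had a median mean log2 difference of -0.04, and the 14 HIF pathway and hypoxia-response genes one of -0.11, against -0.03 over all genes kept. In the order H2, H3, H4, the enzymes had medians of -0.01, -0.03 and -0.08, the hypoxia genes of -0.10, -0.03 and -0.08, and all genes kept of -0.03, -0.02 and -0.05. Without H2 the median of the hypoxia genes was -0.06. Of the enzymes 7 were lower and 0 higher with all 3 hairpins, and of the hypoxia genes 4 were lower and 2 higher, where 30.6% of all genes kept were lower and 16.9% higher. The shares of the hypoxia genes, 28.6% and 14.3%, are near that background. Under centring the medians stayed below 0, at -0.01 and -0.07, but 3 enzymes were then lower and 3 higher, and 3 hypoxia genes lower and 4 higher. Of all genes kept, 23.3% were then lower and 23.6% higher. The scatter between hairpins was compared as well, with no test. The median distance between a gene's highest and lowest hairpin was 0.11 for the enzymes and 0.29 for the hypoxia genes, against 0.22 over all genes kept. For the 8 enzymes with a mean log2 intensity of at least 12 it was 0.085, against 0.16 for all genes of at least 12, which were not matched to them in level.

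**Figure D3:**
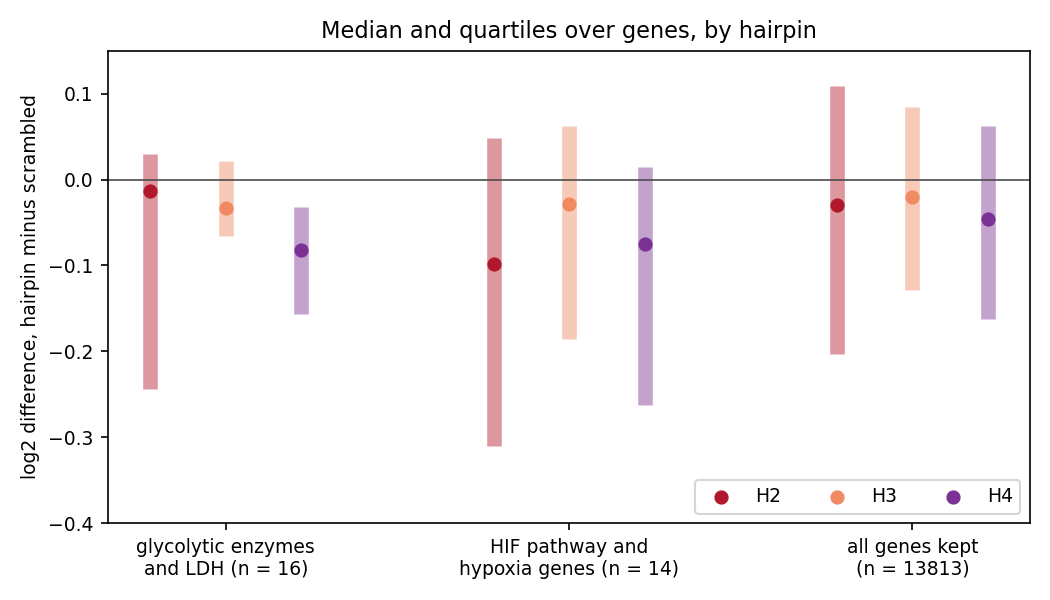
Log2 difference of each hairpin array from the scrambled array (y axis) over the 16 glycolytic enzymes and lactate dehydrogenases (LDH), the 14 HIF pathway and hypoxia genes and the 13813 genes kept. Points are medians over genes and bars span the quartiles, with 1 array per hairpin. All medians lie between -0.10 and -0.01, and the bars of the enzymes for H3 and H4 are the shortest.

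Genes of the same pathways outside the 36 were read from lists of general knowledge. None of their genes passed an adjusted p of 0.05 in limma. Of 31 other genes of glycolysis, gluconeogenesis and pyruvate use past the filter, 10 were lower (32.3%) and 6 higher (19.4%) with all 3 hairpins. Of all genes kept, 30.6% were lower and 16.9% higher. The list had a median of -0.02. The largest mean differences in that list were those of SLC2A6, a lysosomal member of the glucose transporter family, PDP1, the phosphatase that opposes the pyruvate dehydrogenase kinases, and ARRDC4, a sugar-responsive arrestin. PDP1 read 4002, 3793 and 4696 with H2, H3 and H4, against 5506 on the scrambled array, all below the control, and averaging -0.41 ± 0.16 (SD, n = 3) on the log2 scale. SLC2A6 differed by -0.48, -0.20 and -0.88, and ARRDC4 by -0.36, -0.28 and -0.47. Of 19 partners and regulators of HIF, 4 were lower (21.1%) and 2 higher (10.5%) with all 3, with a median of -0.03. ARNT2, a neural partner of the alpha subunits, differed by -0.30, -0.08 and -0.70, CITED2, a competitor of HIF for coactivators, by -0.26, -0.10 and -0.60, and HIF1AN, the asparagine hydroxylase, by -0.79, -0.01 and -0.16.

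Of 58 other genes known as targets in hypoxia studies, 17 were lower (29.3%) and 9 higher (15.5%) with all 3 hairpins. Of all genes kept, 30.6% were lower and 16.9% higher. The list had a median of -0.06. Lower by at least 0.32 on the log2 scale with every hairpin were EFNA1, BHLHE41 and DDIT4 (5.17%, where 1.9% of all genes were), and that much higher were IGFBP3 and IGFBP5 (3.45%, where 0.369% were). BHLHE41 and DDIT4 were named after their values were seen. EFNA1, an ephrin of blood vessels, read 419.7, 589.5 and 385 with H2, H3 and H4, against 811 on the scrambled array. IGFBP5, a carrier of insulin-like growth factors, read 857, 511 and 1407, against 372, so every knockdown array was above the control but by 0.46 with H3 and 1.92 with H4. IGFBP3, of the same family, differed by 0.89, 0.69 and 0.64. These genes respond to many signals besides oxygen, and the list went both ways. Of 11 common reference genes, 3 were lower (27.3%) and 2 higher (18.2%) with all 3 hairpins. Their mean log2 differences ran from -0.19 (POLR2A) to 0.11 (PPIA). That span takes in the means of GAPDH, PGK1, ENO1, LDHA and LDHB but not those of SLC2A1, SLC2A3, EPAS1, ENO2 or EGLN3. Those outside it were picked from the 12 members with the largest mean difference, and the reference genes were not matched to them in intensity.

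**Figure D4:**
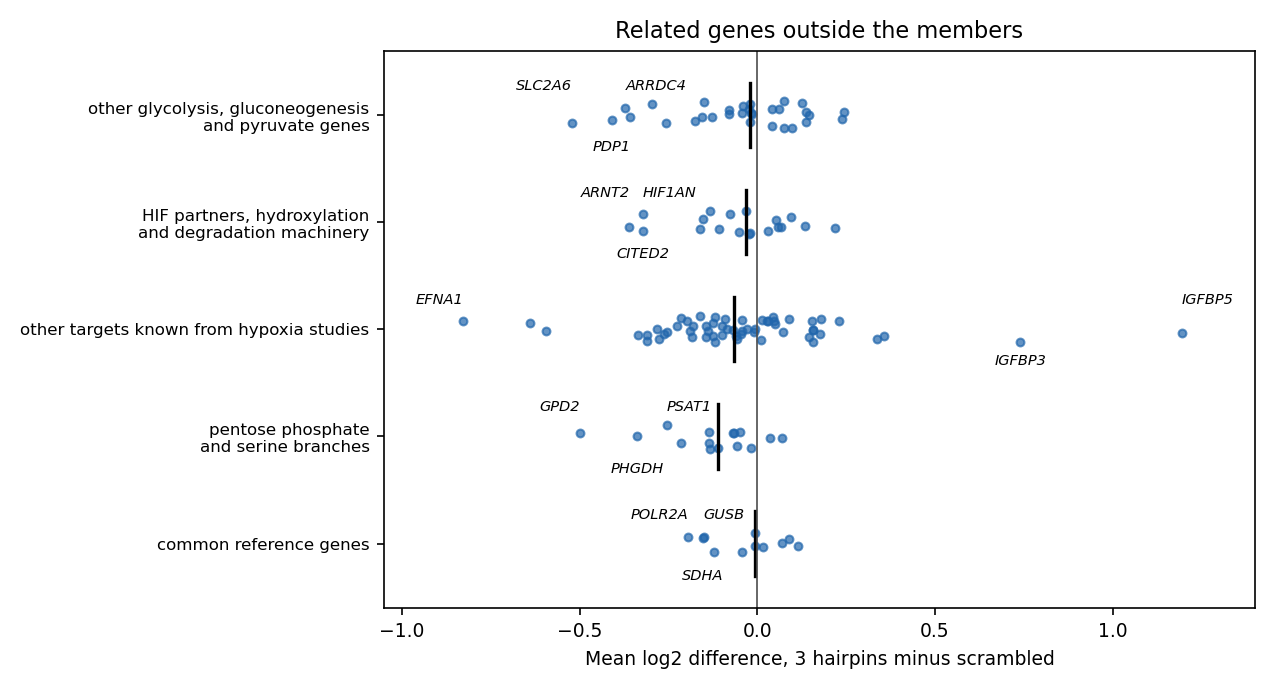
Mean log2 difference of the 3 hairpin arrays from the scrambled array (x axis) for genes of 5 lists outside the members (y axis). Each point is 1 gene past the intensity filter, the black bar is the list's median, and the 3 genes with the largest mean difference are named. The medians lie between -0.11 and -0.01, while IGFBP5 reaches 1.19 and EFNA1 -0.83.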

How the data were processed

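Expression was measured in 4 DAOY samples, 1 array each. Each array has 1 deposited intensity per probe set, which the authors summarised and normalized with RMA, per the submitters' processing notes. RMA's version and settings, the genome build and detection calls were not given in the sources used here. The deposited intensities are linear, so log2 was taken. Its quantile step gives the arrays like distributions, so a shift in total RNA would not be seen. The number of arrays limits the precision.

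Of 33297 probe sets, 19460 have exactly 1 symbol and 1754 several, while 12083 list no gene; 19429 of those with 1 symbol matched the RefSeq gene table (GRCh38.p14). The probe set with the highest mean stood for a gene. Genes under the 25th percentile of mean log2 intensity (6.78) were left out. The 3 hairpin arrays, taken as replicates of 1 genotype, were fitted against the scrambled array with limma 3.58.1 (lmFit, eBayes with a trend; R 4.3.3) with Benjamini-Hochberg adjustment over 13813 genes at 0.05, leaving 2 residual degrees of freedom. The p-values rest on the spread between the 3 hairpin arrays, which eBayes moderates with that of the other genes. The error of the lone scrambled array is assumed to be alike and was not measured. Single hairpins have 1 array a side and got no p-value. The fit was tested on simulated data with planted changes of at least 2-fold, where it called most large changes and missed smaller ones. The mean difference of every member was under 2-fold, a size that the simulation did not cover. Differences are log2 hairpin minus scrambled. Tables and plots were made in Python 3.11.15 (pandas 2.3.3, matplotlib 3.10.9).

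Values on every array are given for the 12 members with the largest absolute mean difference, any at least 0.32 (log2) to 1 side with all hairpins, and the brightest member of each role group. Further members are given where a pathway step needed them. Outside the members the 3 genes with the largest mean difference in each list are named. Members and lists were chosen with earlier results of these data known. Alternatives were other scalings, filters, probe set rules, an added offset of 32, eBayes without a trend, other fold thresholds and leaving out each hairpin.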

Additional observations from a re-analysis of the deposited data

How the results depend on the processing

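Under every alternative tried, other scalings, filters, probe set rules, an offset, eBayes without a trend and leaving out each hairpin, limma called 0 genes and 0 members, with 248 to 691 genes at an unadjusted p under 0.05 (446 as reported). None of the 12 members named for their size changed the sign of its mean difference in a setting that kept it. The filter at the 50th percentile kept 31 members and left out EPAS1, MXI1, PFKFB4, ALDOC and ANKRD37, which lay below that level. The median of the hypoxia genes was -0.126 to -0.056 when each hairpin in turn was left out (-0.106 as reported), highest without H2. Members at least 1.5-fold lower with every hairpin left in numbered 0 to 1, the 1 being EPAS1 without H3. Members lower with all 3 hairpins numbered 8 after centring (14 as reported). Members higher with all 3 numbered 7 after centring and 4 after cyclic loess (2 as reported). With the filter at the 50th percentile they numbered 1, as MXI1 was left out. With each hairpin in turn left out, 3 to 8 members were higher with the 2 that remained. Counts over 2 hairpins cannot be smaller than those over 3. Among those 12, the mean differences moved by over 1.5 times without 1 hairpin were, without H2, EPAS1 at -0.47, ENO2 at -0.29, HK1 at -0.10, PDK3 at -0.12 and NDRG1 at -0.23, without H3, PFKFB4 at -0.04 and PFKL at -0.36, and without H4, PFKFB4 at -0.36, PDK3 at -0.50, NDRG1 at -0.61 and PFKL at -0.15. No paired analysis was possible because the scrambled group has 1 array and shares fewer than 2 replicate numbers with the knockdown group. With 1 control array and no detection call, small differences cannot be told from the control's own error.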

Other observations

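Branches that leave glycolysis lay below the scrambled array more often than above it, as all genes kept did. Of 15 genes past the filter in the pentose phosphate, serine and glycerol phosphate branches, 7 were lower (46.7%) and 0 higher with every hairpin. Of all genes kept, 30.6% were lower and 16.9% higher. After centring each array on its median, 5 were lower (33.3%) and 0 higher, where 23.3% and 23.6% of all genes kept were. The list's median was -0.11, or -0.08 after that centring. None passed in limma. GPD2, the mitochondrial glycerol phosphate dehydrogenase, read 790.2, 1499.7 and 1046 with H2, H3 and H4, against 1519 on the scrambled array, so H3 was level with the control. PHGDH, the first enzyme of serine synthesis, differed by -0.45, -0.11 and -0.45, and PSAT1, the next one, by -0.01, -0.13 and -0.62. PHGDH was lower with every hairpin, while PSAT1 was level with the control at H2 and lowest with H4.

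PDK3 lies near ZFX on chromosome X, with 2 protein-coding genes annotated between them. On the log2 scale PDK3 differed by -0.68 with H2, by -0.32 with H3 and by 0.09 with H4, and ZFX by -0.94, -0.93 and -0.52. The pair was noticed after the values were seen, and 3 arrays that share 1 control allow no test of it.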
